A study of Homo sapiens with 2 samples.

Results

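MicroRNAs (miRNAs) named from miR-4632 to miR-4804 were examined in the exosomes of a pair of HuH-7 cultures. These names were given in order of registration, and most of this run was registered from small RNA sequencing of breast tumours and normal breast. The origin is background on the names and was not measured here. Members were chosen by name alone, as every probe of the scanner output whose number lies in that range, with any letter or arm ending. That gave 280 of the 2565 miRNA probes on each array, from 175 hairpins: 105 probes for 5p arms, 105 for 3p arms and 70 for names without an arm. HuH-7 is an established human hepatocellular carcinoma line. One culture is labelled HuH-7-P, here P, and the other HuH-7-M, here M, letters that the labels do not spell out. Both were grown in DMEM with serum, moved to advanced DMEM and had their vesicles filtered and pelleted by ultracentrifugation. Their total RNA, carrying the dye Cy5, was read on Toray 3D-Gene miRNA arrays. The series title refers to intrahepatic metastasis, and the comparison asks which vesicle miRNAs differ between the cultures. There was 1 array per culture, so no value has a replicate, no test between the cultures was made, and culture, vesicle preparation, labelling and array cannot be told apart.

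A miRNA is a short RNA cut from a hairpin precursor, first by Drosha in the nucleus and then by Dicer in the cytoplasm. The cut leaves a duplex of a 5p and a 3p strand, of which usually 1 is loaded into an Argonaute protein and kept while the other is degraded. The loaded strand finds messenger RNAs mainly through its seed, bases 2 to 8, and lowers their translation and stability. miRNAs with high registration numbers are mostly little studied and often scarce, and a role is given here only where one is well established.

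The 9 members that stood at least 2-fold apart between the arrays are shown first, because the results turn on them. Sequences are those of RefSeq (GRCh38.p14), which held 250 of the 280 members, and the capitals mark the seed. The first 4 read higher and the last 5 lower in M exosomes.
miR-4732-5p: uGUAGAGCagggagcaggaagcu
miR-4800-3p: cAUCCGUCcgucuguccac
miR-4730: cUGGCGGAgcccauuccaugcca
miR-4648: uGUGGGACugcaaaugggag
miR-4697-3p: uGUCAGUGacuccugccccuuggu
miR-4684-3p: uGUUGCAAgucgguggagacgu
miR-4685-5p: cCCAGGGCuuggaguggggcaagguu
miR-4700-5p: uCUGGGGAugaggacagugugu
miR-4723-5p: uGGGGGAGccaugagauaagagca
No seed was shared among these 9.

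Most members were dim. The background limit was set 2 SD over the mean of the array's BLANK spots, at a spot median of 62.3 on the P array and 61.2 on the M array. On the P array 180 members (64.3%) passed it and on the M array 178 (63.6%), against 65.1% of all miRNA probes on each array. Both limits were passed by 171 members (61.1%), called measured below, and neither by 93. No Probe spots, a second and brighter kind of control, gave a stricter limit of 86.9 on the P array and 89.9 on the M array, which 104 members (37.1%) passed on both arrays, against 30.8% of all probes. Signals below are spot medians after subtraction of the BLANK mean, in arbitrary units. They were over 100 on both arrays for 47 members and over 1000 for 8.

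Of the 105 members with a 5p ending 60 were measured, of the 105 with a 3p ending 62, and of the 70 names without an arm 49. A signal over 300 on both arrays was found for 13 of the 5p members, 4 of the 3p members and 8 of those without an arm. Within the 105 hairpins that had both arms on the array, both were measured in 52, only the 5p arm in 8, only the 3p arm in 10 and neither in 35. At the No Probe limit the same hairpins split into 24 with both arms, 16 with the 5p arm only, 11 with the 3p arm only and 54 with neither. The arm that passed was usually the one richer in G: the 5p arm in 14 of the 15 hairpins with the 5p arm only and both sequences known, and the 3p arm in 8 of the 10 with the 3p arm only. It was the one richer in G and C together less often, in 9 of those 15 hairpins and 6 of those 10. Probes of different sequence bind with different strength, so these counts describe the probes and do not show which arm was the more abundant.

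Differences are log2 values of the M array minus the P array after background correction with an offset of 50 and quantile normalization. Spots of 1 control probe varied on an array with a log2 SD of 0.14, which puts a technical spread of 0.20 on a difference of single spots. That value leaves out any spread between cultures, preparations and arrays. Among the 171 measured members 4 read higher by 2-fold or more in M exosomes and 5 lower by as much (9, or 5.26%), and 162 (94.7%) lay within 2-fold. Over all 1593 measured probes 0.439% were at least 2-fold higher, 1.69% lower and 2.13% either way. The members' median difference was 0.03 with quartiles of -0.04 and 0.14, against a median of 0.01 over all probes. By arm the medians were 0.01 for 5p, 0.03 for 3p and 0.05 for names without an arm. The 9 members passed the No Probe limit on both arrays.

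The share of members past 2-fold, like that of all probes, moved with the setting. It was 9.94% against 7.66% of all probes when the BLANK mean was subtracted without an offset, and 11.1% against 8.08% in the authors' table of values. Without scaling it was 6.43% against 2.82%, which the 75th percentile also gave, and 6.43% against 2.76% after scaling to the median of measured probes. On the Spike Control scale it was 5.85% against 4.71%, after cyclic loess 4.68% against 2.39%, with an offset of 16 5.26% against 3.45% and with no background correction 5.26% against 2.01%. The split also moved, from 4 higher and 5 lower to 7 and 4 without scaling and to 0 and 10 on the Spike Control scale. Over all measured probes it moved from 7 higher and 27 lower to 19 and 26 without scaling and to 2 and 73 on the Spike Control scale.

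miR-4732-5p had the highest value among the members in M relative to P exosomes. Its hairpin lies on the minus strand at chr17:28861655-28861730, beside the hairpins of the erythroid miRNAs miR-144 (chr17:28861533-28861618) and miR-451a (chr17:28861369-28861440). Its signal was 201 on the P array and 561 on the M array, a normalized difference of 1.26. The other arm, miR-4732-3p, read 29.5 and 30.3 (0.03). The neighbouring miR-451a was dim, with spot medians of 71.8 on the P array and 69.9 on the M array, and differed by -0.01. So within this short stretch of chromosome 17 only miR-4732-5p, of the 3 probes given, was at least 2-fold apart.

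miR-4800-3p, whose mature sequence lies at chr4:2250091-2250109 within the span of MXD4, a MYC-network repressor gene, was dim on the P array. Its signal was 28.3 there and 131 on the M array (1.23). Of the 9 members it moved most between settings, up to 2.25 with the BLANK mean subtracted in place of an offset, and 2.24 in the authors' table of values. miR-4730, at chr17:80419427-80419449 in the span of ENDOV, read 118 and 321 (1.20). miR-4648, at chr7:2527074-2527093 in the span of LFNG, a modifier of Notch receptors, read 78.4 and 227 (1.12). All 4 kept a value above 0 under 9 of 9 other scalings and background steps and were at least 2-fold higher under 8. Under the remaining setting, scaling to the Spike Control spots, they ranged from 0.53 to 0.70, while the median of all measured probes moved to -0.58.

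miR-4697-3p had the lowest value of the members. It lies on the minus strand at chr11:133898506-133898529 within the span of IGSF9B, a synaptic adhesion gene, and read 378 on the P array against 66.8 on the M array (-1.89). miR-4684-3p, at chr1:22719566-22719587 in the span of EPHB2, an ephrin receptor gene, read 334 and 65.5 (-1.71). Both passed the No Probe limit on each array and were far dimmer on the M array. miR-4685-5p, at chr10:98431332-98431357 in the span of HPS1, a gene for a part of the machinery that makes lysosome-related organelles, read 389 and 95.0 (-1.63). miR-4700-5p, at chr12:120723202-120723223 in the span of UNC119B, read 363 and 96.0 (-1.48). These 4 were at least 2-fold lower under all 9 other settings, with values between -2.52 and -1.42. Gene spans here come from a table without exons or gene strand, so exon, intron and sense were not told apart.

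miR-4723-5p differed from the other 4 in its dependence on scaling. This member lies at chr17:28360660-28360683 in the span of VMA12 and was bright, with a signal of 2608 on the P array and 1780 on the M array. Its difference was -1.11 after quantile normalization and -0.54 without scaling, where the call is lost. It was at least 2-fold lower under 4 of the 9 other settings and below 0 under each of them.

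Inside 2-fold, 12 more members lay at least 0.5 (log2) from 0, 9 of them higher and 3 lower in M exosomes. With those past 2-fold included, 21 of the 171 measured members lay that far from 0, against 125 of all 1593 measured probes. miR-4707-5p read 290 on the P array and 562 on the M array (0.81), and miR-4674 read 234 and 422 (0.71). miR-4787-3p was dimmer, at 64.9 and 136 (0.72), and its 5p arm was at 0.30. Of the rest, miR-4792 was at 0.59, miR-4695-3p at 0.57 and miR-4726-3p at 0.54, values that turned slightly negative on the Spike Control scale (-0.02, -0.04 and -0.07). The lower ones were miR-4646-5p (159 and 92.2, -0.54), miR-4688 and miR-4728-5p, each beyond 2-fold on that scale. The other members of this class are among the brightest, described further on.

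Adjacent spots were read beside these 9. The measured miRNA spots within 1 column and 1 row had median differences between -0.06 and 0.01 for 7 of the 9. For miR-4732-5p the median over 2 neighbours was 0.17. miR-4730 had 1 measured neighbour, miR-4674, which is itself a member and differed by 0.71. No spot of a member carried a bad-spot entry.

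The arms of a hairpin come from the same precursor, and their differences between the cultures were therefore compared within hairpins. These differences still depend on brightness, through the offset and the quantile normalization. In 46 of the 52 hairpins with both arms measured the differences of the arms lay within 2-fold of each other, and in 37 they were less than 0.5 (log2) apart. The median distance was 0.29. In the remaining 6 hairpins the arms stood at least 2-fold apart. In each of these 1 arm was among the 9 members above, while its partner lay within 2-fold between the cultures. The same counts were not made over the other hairpins of the array, so whether they are particular to the members was not tested. Over the 52 hairpins the 5p and 3p differences had a Pearson r of -0.05 and a Spearman rho of -0.06, given as a description of probes that share both arrays. In 25 hairpins the differences had the same sign.

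The hairpins of 3 of these 6 are printed to show how the arms are placed, with the 5p and then the 3p mature sequence in capitals.
miR-4732: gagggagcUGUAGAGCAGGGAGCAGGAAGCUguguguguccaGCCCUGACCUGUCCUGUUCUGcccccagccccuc
miR-4685: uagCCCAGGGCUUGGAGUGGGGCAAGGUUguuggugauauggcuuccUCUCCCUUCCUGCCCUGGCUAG
miR-4700: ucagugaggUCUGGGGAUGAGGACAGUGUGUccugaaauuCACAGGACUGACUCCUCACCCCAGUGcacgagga
In all 3 the 5p arm was the one that differed between the cultures, as in miR-4723. In miR-4697 and miR-4800, not printed here, it was the 3p arm.

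The widest gap was in miR-4697, where the 5p arm read 0.36 and the 3p arm -1.89, a distance of 2.25 (5p minus 3p) that ranged from 2.16 to 2.94 over the settings. Signals of the 5p arm were 239 on the P array and 309 on the M array, so the arms of this hairpin differed in opposite directions, except on the Spike Control scale, where the 5p arm was at -0.27. In miR-4685 the 5p arm was at -1.63 and the 3p arm at 0.13, a distance of -1.77 (-2.35 to -1.69 over the settings). In miR-4700 they were at -1.48 and 0.06 (-1.54). The partner arms of both hairpins lay just above the No Probe limit, with spot medians of 101.1 and 107 for miR-4685-3p and 90.1 and 91.8 for miR-4700-3p. In miR-4732 the distance was 1.23, in miR-4723 it was -1.22 and in miR-4800 -1.04. miR-4732-3p passed the BLANK limit but not the No Probe limit on the M array, and at that stricter limit miR-4732 dropped out, leaving 5 hairpins with arms at least 2-fold apart. Constant scaling cancels in these distances. That of miR-4723 depended on how bright probes were normalized. It was -0.63 without scaling, -0.99 after cyclic loess and -0.79 in the authors' table of values. miR-4684-3p has a partner too, but miR-4684-5p was above background on the M array only.

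**Figure D1:**
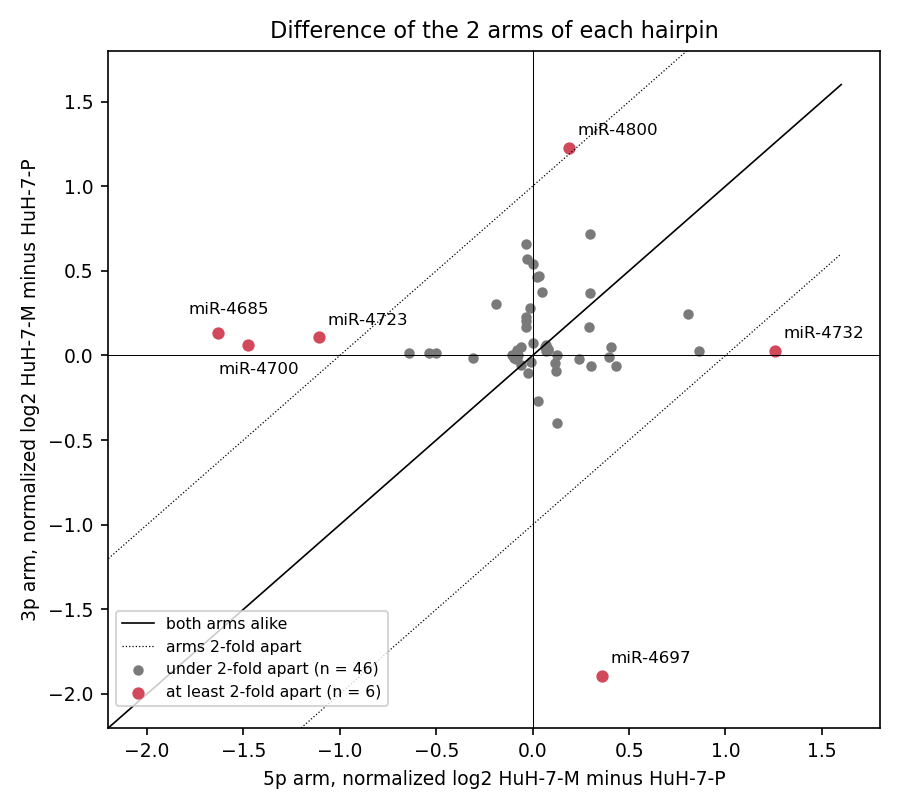
Normalized log2 difference of the M minus the P array of the 5p arm (x axis) and the 3p arm (y axis) of each of the 52 hairpins with both arms measured, 1 array per culture. The 6 hairpins in red have arms at least 2-fold apart (outside the dotted lines), and 5 of them lie near an axis, with 1 arm close to 0.

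miR-4728 was followed as a member with a known host gene. Its hairpin (chr17:39726495-39726561) is known to lie in an intron of ERBB2 (chr17:39688094-39728658), the gene of the HER2 receptor that is amplified in a class of breast cancers. miR-4728-5p read 868 on the P array and 614 on the M array, and miR-4728-3p 49.98 and 48.2. The differences were -0.64 and 0.01, both within 2-fold. On the Spike Control scale miR-4728-5p reached -1.05.

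The 12 brightest members held 52.4% of the summed signal of the members above background on the P array and 61.0% on the M array, and the members together held 8.27% and 9.06% of the signal of all probes. miR-4787-5p led with 3621 on the P array and 6992 on the M array, and ranked 16 among all probes by mean log2 signal. miR-4745-5p followed with 3188 and 4910. Of the 12, 6 were 5p arms, 2 were 3p arms and 4 had no arm in the name. miR-4723-5p and miR-4688 (1014 and 724) were dimmer on the M array, and the other 10 were brighter there. miR-4688 differed by -0.66 after quantile normalization and by -1.04 on the Spike Control scale.

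What that brightness shift amounts to depended on the scaling. The median difference of the 12 was 0.15 after quantile normalization and 0.62 without scaling. miR-4725-3p (1150 and 2614) was at 0.66 after quantile normalization and 1.15 without scaling, miR-4734 (1186 and 2574) at 0.57 and 1.09, and miR-4665-5p (561 and 1183) at 0.86 and 1.01. These 3 were at least 2-fold higher without scaling, under scaling to the median or the 75th percentile and in the authors' table, and under none of the other settings for values. miR-4739 (1269 and 2322), miR-4651 (1172 and 1614), miR-4749-5p (893 and 1402), miR-4763-3p (1021 and 1185) and miR-4632-5p (795 and 871) were within 2-fold under both. miR-4787-5p was at 0.30 and 0.94. miR-4745-5p was at -0.04 after quantile normalization and 0.62 without scaling, and miR-4763-3p (-0.05 and 0.21) and miR-4632-5p (-0.08 and 0.13) also changed sign, so the direction of these 3 was not settled. The Spike Control spots were themselves brighter on the M array by 0.58 (log2 ratio of signals), and their part in this shift was not tested.

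**Figure D2:**
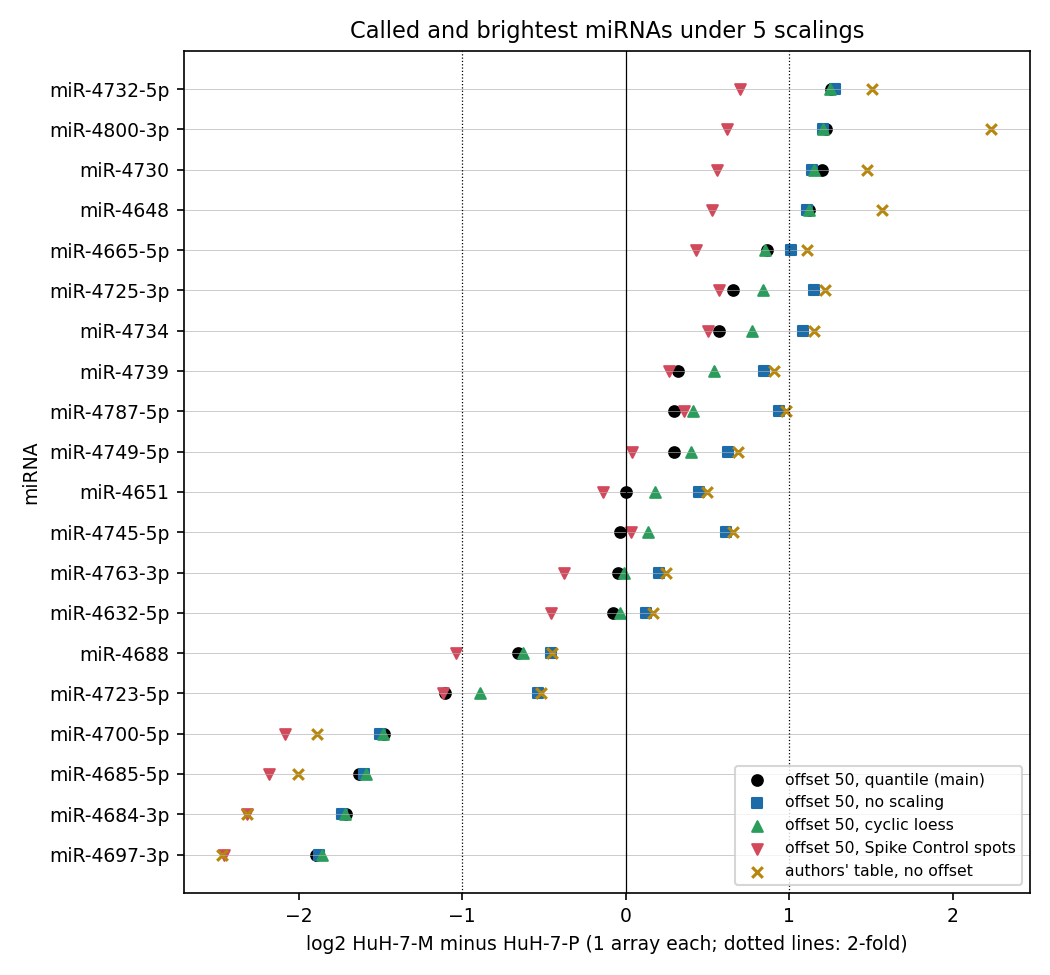
Log2 difference of the M minus the P array (x axis) for the 9 members at least 2-fold apart and the 12 brightest members (y axis; miR-4723-5p is in both sets) under 5 scalings, 1 array per culture. The 4 lowest members stay beyond the dotted 2-fold line under each of the 5, the 4 highest drop inside it on the Spike Control scale, and bright members such as miR-4745-5p move across 0.

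Bright members shared a base composition that the naming rule did not use. The 12 brightest are rich in G, and 10 of them hold a run of at least 4 G, in capitals in these 6.
miR-4787-5p: gcGGGGGuggcggcggcauccc
miR-4745-5p: ugaguGGGGcucccgggacggcg
miR-4723-5p: uGGGGGagccaugagauaagagca
miR-4725-3p: uGGGGaaggcgucagugucggg
miR-4739: aagggaggaggagcggaGGGGcccu
miR-4651: cGGGGugggugaggucgggc
miR-4734 (gcugcgggcugcggucagggcg) and miR-4632-5p (gagggcagcguggguguggcgga) have G-rich sequences with no such run. The motif GGGG was searched on the mature strand and was found in 28 of the 250 members with a sequence (11.2%), against 11.9% of all miRNA probes with one. All 28 were measured, as were 258 of the 269 miRNA probes that held it on the whole array. Among the 24 members with a sequence and a signal over 300 on both arrays 20 held it (83.3%), against 65.5% of the 168 probes of that brightness in the whole array.

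The share of G and C in the mature sequence ran with the signal. Over the 250 members its rank correlation with the spot median was 0.79 on the P array and 0.81 on the M array, against 0.76 and 0.77 over the 2253 probes with a sequence. These are descriptions over probes that share the arrays. With under 40% G and C, 2 of 49 members were measured, from 40% to below 50% 20 of 54, from 50% to below 60% 55 of 67, from 60% to below 70% 45 of 47, and from 70% up 33 of 33. In the same order these are 4.08%, 37.0%, 82.1%, 95.7% and 100%. Over all probes with a sequence the shares were 5.01%, 44.1%, 78.3%, 93.8% and 97.8%. Median spot medians of the members with 70% or more were 350 on the P array and 480 on the M array. Over all probes of that composition they were 282 and 290. The part of base composition in the members' levels was not tested.

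The difference between the cultures also ran with base composition, more weakly. Over the 155 measured members with a sequence the rank correlation of G and C share with the difference was 0.26 after quantile normalization and 0.38 without scaling, and over all such probes 0.17 and 0.24. The 33 members with at least 70% G and C had a median difference of 0.17 after quantile normalization, 0.23 without scaling and 0.19 after cyclic loess. On the Spike Control scale it turned to -0.35, which was still 0.23 above the median of all measured probes on that scale. Over all probes of that composition the median was 0.09 after quantile normalization, 0.18 without scaling and 0.11 after cyclic loess. On the Spike Control scale it was -0.40, which was 0.18 above the median of all measured probes. The 9 members at least 2-fold apart were not of this class, with 54.2% to 65.4% G and C.

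Members seldom shared a seed. The 250 sequences held 243 different seeds, and 7 seeds were held by a pair of members each. In 5 of these pairs both members were measured, and they are printed with the seed in capitals.
miR-4700-5p: uCUGGGGAugaggacagugugu
miR-4667-5p: aCUGGGGAgcagaaggagaacc
miR-4749-5p: uGCGGGGAcaggccagggcauc
miR-4706: aGCGGGGAggaagugggcgcugcuu
miR-4739: aAGGGAGGaggagcggaggggcccu
miR-4756-5p: cAGGGAGGcgcucacucucugcu
miR-4741: cGGGCUGUccggaggggucggcu
miR-4675: gGGGCUGUgauugaccagcagg
miR-4654: uGUGGGAUcuggaggcaucugg
miR-4769-5p: gGUGGGAUggagagaagguaugag
Only the first pair held a member at least 2-fold apart. miR-4700-5p was at -1.48, while miR-4667-5p, with the same seed, read 384 on the P array and 376 on the M array (-0.06).

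The other 4 pairs lay within 2-fold. miR-4749-5p was at 0.29 and miR-4706 (584 and 541) at -0.16, and miR-4739 was at 0.32 and miR-4756-5p (79.0 and 71.7) at -0.10. miR-4741 (669 and 942) was at 0.28 and miR-4675 (148 and 156) at 0.09. miR-4654 (91.6 and 88.5) was at 0.00 and miR-4769-5p (70.3 and 64.2) at -0.07. Of the last pairs, miR-4673 (50.8 and 66.6) was at 0.23 with its partner miR-4645-5p below the limit, and neither miR-4799-3p nor miR-4720-5p passed it.

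Some members carry the seed of a miRNA known from other work. miR-4770 has that of miR-143-3p, a smooth muscle and fibroblast miRNA, and read 8.93 on the P array and 7.03 on the M array (-0.04).
miR-4770: uGAGAUGAcacuguagcu
miR-143-3p: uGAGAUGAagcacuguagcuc
miR-4735-3p has the seed of miR-18a-5p, of the miR-17-92 cluster, and miR-4782-3p that of miR-219a-5p, a neural and oligodendrocyte miRNA, and neither passed the limit on an array. miR-4728-5p has the seed of miR-149-3p, miR-4651 that of miR-608, miR-4665-5p that of miR-1275 and miR-4725-5p that of miR-504-5p. In all, 54 members share a seed with another mature miRNA of the reference, members included.

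Above background on 1 array only were 9 of the 280 members on the P array and 7 on the M array. Over all 2565 miRNA probes the counts were 76 and 78. The 9 and 7 members each lay below the No Probe limit. For these a bound replaces the difference, namely the normalized value on the brighter array against the higher of the dim spot's own value and the lowest value above background on the dimmer array. On the P array the largest were miR-4650-5p, at least 1.23-fold higher there, miR-4761-5p (at least 1.11-fold) and miR-4759 (at least 1.08-fold). On the M array they were miR-4802-3p, at least 1.08-fold higher there, miR-4743-3p and miR-4694-5p (each at least 1.04-fold). On the Spike Control scale the bounds on the M array fell below 1-fold and do not hold there, while those on the P array became at least 1.85-fold for miR-4650-5p, 1.67-fold for miR-4761-5p and 1.63-fold for miR-4759.

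miRNAs that mark cell types were dim here. Of 5 hepatocyte miRNAs all 5 were measured, with a summed signal of 119 on the P array and 149 on the M array. Their differences ran from -0.06 for miR-194-5p to 0.41 for miR-122-5p, the main miRNA of liver. miR-192-5p was at -0.05, miR-215-5p at 0.06 and miR-885-5p at 0.14. Of 5 epithelial miRNAs, which breast tissue also expresses, 3 were measured (summed signal 67.8 and 59.0), with differences from -0.05 to -0.03. Of 5 blood cell miRNAs 4 were measured (57.6 and 51.5) and of 5 endothelial and stromal ones 2 (62.2 and 78.9). Each summed signal is over all 5 miRNAs of its list, measured or not, with signals below the BLANK mean left out. The part of these cell type miRNAs in the members' values was not tested.

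Runs of names registered from other sources were set beside the members as a description. Of 144 probes from miR-4417 to miR-4540, a run registered largely from B cell sequencing, 70.8% were measured and 1 of those 102 was at least 2-fold apart. Of 167 5p probes from miR-6726 to miR-6895, a run with many intron-derived miRNAs, 95.2% were measured and 1 of 159 was at least 2-fold apart. Of the 168 3p probes of the same run 87.5% were measured and 0 of 147 were so far apart. With 1 array per culture these counts, like the 9 of 171 members, carry no test. The members were scattered in the genome: the 160 hairpins with a position lay on 22 chromosomes, 122 of them within the span of a protein-coding gene, 8 within that of another gene only and 30 in none.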

How the data were processed

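Members and gene lists were chosen with earlier results of these data known. Per the file headers, the authors deposited for each of 2 arrays (Toray 3D-Gene, Cy5) the spot median intensity at 3200 spots, and a table of processed intensity values; no software is named there. Set against the scanner values, the table is linear, BLANK-subtracted, divided by a median of each array and multiplied by 25. That median is over the miRNA probes above the array's background limit (30.5 for P, 29.8 for M). Scanner names were used, because the table's names go against them; 1739 table rows were matched to 1 probe each by their values (relative tolerance 1e-06).

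BLANK (320 spots) and No Probe (85 spots) means and SDs leave out the top and bottom 5%. The main setting was normexp on the BLANK spots (offset 50; nec of limma 3.58.1 in R 4.3.3), quantile normalization over 2565 miRNA probes and log2. It was also run on simulated data. That run changed bright probes only, by more than any member differed here, with no brightness shift between the arrays. It therefore does not cover dim probes, smaller changes or such a shift. The offset pulls dim differences toward 0. With 1 array per culture a size of 2-fold was used and no p-value computed, and the number of arrays limits precision.

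Members named are those at least 2-fold apart, the 12 brightest, the 3 largest bounds per array, the 5 hairpins with the widest arm distance, miR-4728 and miR-4732, and shared seeds; other members in the text were chosen after their values were seen. Members without a sequence in the reference are named only.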

Additional observations from a re-analysis of the deposited data

How the results depend on the processing

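The 4 higher and 5 lower members became 10 and 7 when the BLANK mean was subtracted without an offset, 13 and 6 in the authors' table of values, and 0 and 10 on the Spike Control scale. Over all probes the 7 higher and 27 lower became, in the same order, 49 and 73, 62 and 66, and 2 and 73. Without scaling, with scaling to the median of measured probes and with scaling to the 75th percentile the members' counts were 7 higher and 4 lower each. Over all probes they were 19 and 26, 20 and 24, and 23 and 22. No background correction and an offset of 16 left 4 and 5, and cyclic loess gave 4 and 4. The No Probe limit, a limit of 3 SD and no filter also gave 4 and 5, but of 104, 168 and 280 members (8.65%, 5.36% and 3.21%). Over all probes these filters gave 7 higher and 22 lower, 7 and 27, and 9 and 28. The Spike Control scale moved the members' median to -0.55, with -0.55 for 5p, -0.56 for 3p and -0.55 for names without an arm, together with the median of all measured probes (-0.58); other settings moved these medians by less than the technical spread. At the No Probe limit the members above background were 41 on the P array and 40 on the M array for 5p, 41 and 35 for 3p, and 32 and 29 without an arm. Hairpins with arms at least 2-fold apart numbered 5 to 9 over the 12 alternatives. Of 302 recomputed values of named members and arm distances 195 moved by less than the technical spread of 0.20, 107 by more, and 0 of the values at least 2-fold apart changed sign. No paired analysis was possible because each culture has 1 array, and no replicate could be left out. Members near the BLANK level have differences that depend mainly on the offset.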
